A study of Caenorhabditis elegans with 35 samples.

Results

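The comparison described here set eak-7;akt-1 dpy-21 triple mutants (5 libraries) against wild-type animals (5 libraries), 10 of the 35 RNA-seq libraries in the series, each of the 7 genotypes having 5. Its libraries were chosen by genotype label, with earlier results of these data known. Of 37555 loci, 1101 were tested, those that reached 5 scaled counts in 5 or more of the 35 libraries. A scaled count is the number of sequenced fragments at a locus multiplied by a factor that brings libraries to a common depth. All animals were Caenorhabditis elegans larvae labelled L2/L2D, taken as whole organisms: more than 200 gravid adults laid eggs for 6 h at 20°C, the eggs were held for 24 h at 25°C, a temperature that induces dauer arrest, and poly(A) RNA was selected from 100 ng of total RNA. The triple mutants carried the eak-7 and akt-1 mutations, which wild-type animals lacked, and in addition a dpy-21 mutation, so the comparison with wild type does not separate dpy-21 from the other mutations. The eak-7;akt-1 double mutant (5 libraries) shared the first pair of mutations with the triple mutant and had no dpy-21 mutation; other groups used below carried a daf-16, a daf-12 or a set-4 mutation, the last as the allele n4600 or dp268, on the same eak-7;akt-1 background. The labels give no allele for dpy-21. The labels number the replicates, and the study describes them as biological replicate samples.

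Dauer is an arrested, stress-resistant alternative to reproductive larval growth. Signalling through the insulin receptor DAF-2 and the kinase AKT-1 holds the FoxO transcription factor DAF-16 in check, EAK-7 acts alongside AKT-1, and animals that lack both genes arrest as dauers at warm temperature. DPY-21 belongs to the dosage compensation complex, which binds both X chromosomes of hermaphrodites and lowers their expression, and it demethylates lysine 20 of histone H4, leaving the monomethylated form on X. Loss of dpy-21 is known to relieve that repression and to let eak-7;akt-1 animals pass dauer arrest.

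Depth was low. The libraries held 34193 to 88068 fragments, with medians of 53005 in eak-7;akt-1 dpy-21 and 60264 in wild type. The first principal component, 40.2% of the variance, divided the 35 libraries into sets of 26 and 9. The smaller set held replicates 6 and 9 of eak-7;akt-1 dpy-21 and replicates 7 and 10 of wild type, which were also the shallowest libraries of their genotypes; its part in the results was not tested beyond the values without those libraries given below. The mutated genes could not be checked, and dpy-21 had 0 fragments in all 35 libraries. Both akt-1 and the locus that joins eak-7 with K08E7.10 and hsb-1 had 0 fragments in eak-7;akt-1 dpy-21, against 1 fragment each in wild type. Adult and sperm RNA was close to absent: the 6 vitellogenin loci were at 0 in both genotypes, and 34 of 35 major sperm protein loci were. Summed over the 4 hypodermal markers dpy-7, rol-6, col-19 and wrt-10, eak-7;akt-1 dpy-21 libraries had 0.669 to 2.60 scaled counts, overlapping with 0.835 to 10.5 in wild-type libraries. Over 6 muscle markers the sums were 1.34 to 3.68 in eak-7;akt-1 dpy-21 and 3.97 to 7.45 in wild type. Neuronal markers were at or near 0 in both. In whole animals, fewer cells of a type and less RNA per cell cannot be told apart.

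Of the 1101 loci, 88 (7.99%) differed between eak-7;akt-1 dpy-21 and wild type by at least 1.5-fold at an adjusted p under 0.05 in limma, 38 higher (3.45%) and 50 lower (4.54%) in the triple mutant; 223 loci had an unadjusted p under 0.05. In 61 of the 88, the values of the 5 mutant libraries did not overlap those of the 5 wild-type libraries, and over all tested loci 88 (7.99%) did not overlap. The division into higher and lower depended on the scaling: with median-of-ratios scaling it was 53 higher and 37 lower, and with TMM scaling 55 and 37, the median log2 fold change of all tested loci being -0.09 as deposited and 0.03 with TMM. Leaving out 1 library moved these counts: 24 loci were higher without replicate 8 of wild type, 25 were higher without replicate 9 of eak-7;akt-1 dpy-21, and 33 were lower without replicate 7 of eak-7;akt-1 dpy-21. Without the smaller set of libraries, 62 loci passed, 23 higher and 39 lower.

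X-linked loci were shifted upwards. Of 127 tested X-linked loci, 20 passed the test (15.7%), 17 of them higher and 3 lower in the triple mutant. Of 872 autosomal loci, 52 passed (5.96%), 9 higher and 43 lower, and with TMM scaling 48 passed, 16 higher and 32 lower. The median log2 fold change was 0.52 for X-linked loci and -0.17 for autosomal loci, a difference of 0.70, or 1.62-fold, and 77.2% of X-linked loci had a positive value, against 34.6% of autosomal loci. By chromosome the medians as deposited were -0.19 on I, -0.15 on II, -0.19 on III, -0.18 on IV and -0.08 on V. These levels depended on the scaling: with TMM scaling the autosomal median was -0.05 and the X-linked median 0.64. On chromosomes I and III no locus was higher and 8 on each were lower. The difference between X and autosomes lay between 0.61 and 0.72 when any of the 10 libraries was left out. It was 0.69 with TMM scaling, 0.76 without the smaller set of libraries, 0.81 in edgeR and 0.82 in DESeq2. The count of X-linked loci that passed was 26, 24 of them higher, with TMM scaling and 13, 12 of them higher, without the smaller set.

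**Figure D1:**
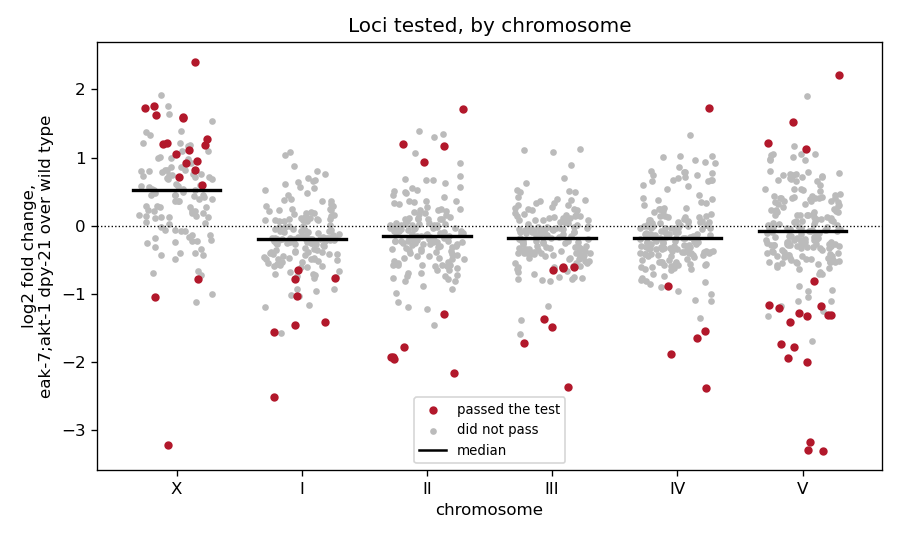
Log2 fold change of eak-7;akt-1 dpy-21 over wild type (vertical axis) for each tested locus, by chromosome, with loci that passed the test in red and the median of each chromosome as a bar. With the scaling as deposited, the X median stands at 0.52, and those of the autosomes between -0.19 and -0.08.

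The shift was present in each library. Measured as the X-linked median minus the autosomal median of log2 values relative to the wild-type mean, replicates 6 to 10 of eak-7;akt-1 dpy-21 had 0.49, 0.74, 0.95, 0.53 and 0.89, against -0.04, -0.09, 0.12, 0.19 and 0.01 in wild type. All 5 mutant libraries stood above all 5 wild-type libraries, and the lowest mutant values came from the 2 libraries of the smaller set. The share of placed fragments that fell on tested X-linked loci was also higher: 6.58% to 9.15% in eak-7;akt-1 dpy-21, against 3.45% to 5.63% in wild type. In eak-7;akt-1 it was 6.21% to 6.95%, above all wild-type libraries and overlapping the lower end of the triple mutant. Without the 5 most abundant X-linked loci, which took 40.9% of X-linked fragments in the mutant and 36.6% in wild type, the shares were 3.88% to 5.67% in eak-7;akt-1 dpy-21 and 2.68% to 3.70% in wild type.

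Set beside the other genotypes, each against the same wild-type libraries, the X-minus-autosome difference was 0.70 for eak-7;akt-1 dpy-21, 0.49 with set-4(dp268) and 0.45 with set-4(n4600) on the double mutant background, 0.17 with the daf-12 mutation, 0.12 with the daf-16 mutation and 0.12 for eak-7;akt-1 itself. SET-4 is the methyltransferase that adds further methyl groups to monomethylated lysine 20 of histone H4. The libraries of the set-4 mutants averaged 0.46 ± 0.16 (dp268) and 0.45 ± 0.20 (n4600), those of eak-7;akt-1 dpy-21 averaged 0.72 ± 0.21, and those of wild type 0.04 ± 0.12 (SD, n = 5 each). The ranges of eak-7;akt-1 dpy-21 and the set-4 mutants overlapped. Directly against eak-7;akt-1, the triple mutant had an X-linked median of 0.35 and an autosomal median of -0.25.

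**Figure D2:**
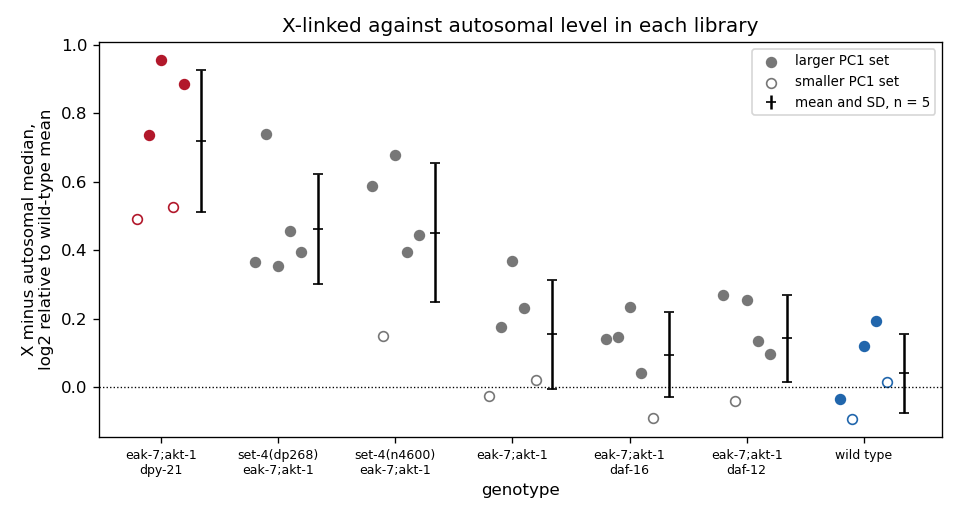
X-linked minus autosomal median of log2 scaled counts relative to the wild-type mean (vertical axis) in each library of the 7 genotypes, with mean and SD; open points are the libraries of the smaller set on the first principal component. The 5 eak-7;akt-1 dpy-21 libraries lie between 0.49 and 0.95, above the 5 wild-type libraries, which lie between -0.09 and 0.19.

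The shift was not limited to loci of one level or one stretch of the chromosome. With loci divided into 3 equal bins by mean level over all libraries, the X-minus-autosome difference was 0.71 in the lowest bin, 0.59 in the middle bin and 0.63 in the highest bin. The X-linked median was 0.44 toward the left end of the chromosome (25 loci), 0.57 in its middle (55 loci) and 0.52 toward the right end (39 loci), the chromosome being divided into 3 stretches of equal length. Many loci in this table join neighbouring genes, since fragments from overlapping genes were not separated; over loci with a single gene name the difference was 0.62. A run of 21 tested loci without gene names follows the X-linked loci in the order of the table, and 9 of them passed the test, 8 higher and 1 lower, with a median of 1.06. The corresponding runs after the autosomes held 78 tested loci, of which 7 passed, with a median of 0.17. The table does not state the chromosome of these loci.

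Among the named X-linked loci, T23F2.3/T23F2.4, a locus of 2 joined genes, had the smallest p. It had 67.1, 64.9, 80.3, 74.7 and 66.9 scaled counts in replicates 6 to 10 of the triple mutant, against 24.8, 20.2, 24.2, 15.03 and 20.9 in wild type. The groups lay far apart, with a log2 fold change of 1.72 ± 0.19 (SE; limma adjusted p = 1.19e-07). The eak-7;akt-1 mean was 42.6, and the locus was also higher in the triple mutant than in eak-7;akt-1 (log2 0.72, limma adjusted p = 0.0077) in a comparison in which 135 of 1101 loci (12.3%) passed.

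C18A11.2 (X:8067568-8068097) had 142, 100.4, 107, 130 and 116 scaled counts in the triple mutant, against 58.5, 55.4, 42.1, 47.6 and 52.9 in wild type. All mutant libraries were above all wild-type libraries, and the log2 fold change was 1.20 ± 0.21 (SE; limma adjusted p = 2.64e-04). Its eak-7;akt-1 mean of 71.2 did not differ from wild type by the test (limma adjusted p = 0.20), while the triple mutant exceeded eak-7;akt-1 (log2 0.77, limma adjusted p = 0.011).

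The locus of tnt-2, which encodes a troponin T of muscle thin filaments, and the overlapping F53A9.11 had 72.6, 59.7, 52.4, 63.7 and 64.9 scaled counts in the triple mutant, against 24.8, 29.8, 34.7, 29.2 and 30.8 in wild type (log2 1.05 ± 0.17, SE; limma adjusted p = 9.07e-05). The groups did not overlap. The eak-7;akt-1 mean, 60.5, was close to the triple mutant's 62.7, with a log2 difference of 0.07 ± 0.17 (SE) between them. The tested muscle list held 7 loci, of which 1, tnt-2, was higher and none lower, with a median of 0.02 against -0.09 over all tested loci. The X-linked myosin light chain mlc-2 averaged 6.71 in eak-7;akt-1 dpy-21 and 2.81 in wild type without passing (limma adjusted p = 0.0785), and passed with TMM scaling (log2 1.12, limma adjusted p = 0.0402). The sum over 6 muscle markers given above was lower in the mutant.

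Among the other X-linked loci that passed, snet-1, a neuropeptide gene (X:3668086-3668942), averaged 33.8 ± 4.57 in eak-7;akt-1 dpy-21 and 17.6 ± 4.37 in wild type (SD, n = 5 each; log2 0.92, limma adjusted p = 0.00243). cpx-2, a complexin, the family that clamps and times synaptic vesicle fusion, averaged 11.9 ± 2.96 and 4.78 ± 2.42 (log2 1.27, limma adjusted p = 0.00368), the locus that holds the gap junction gene inx-2 averaged 29.0 ± 2.36 and 15.7 ± 7.14, and the locus that holds the glutamate transporter gene glt-1 averaged 5.77 ± 3.07 and 1.71 ± 2.11, the mutant given first in each. Their eak-7;akt-1 means were 25.8 for snet-1, 7.06 for cpx-2, 22.8 for the inx-2 locus and 2.50 for the glt-1 locus, and none of the 4 differed by the test between eak-7;akt-1 and either other genotype. Of these 4 loci, the glt-1 locus was the one whose groups overlapped.

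F13C5.5 (X:604872-608492) was nearly silent in wild type. It had 28 fragments over the 5 eak-7;akt-1 dpy-21 libraries and 1 over the 5 wild-type libraries, a ratio of 24.6 with a 95% counting interval of 4.06 to 1005. F35F10.7, on chromosome V, had 30 fragments in the mutant and 1 in wild type, a ratio of 26.3 (4.38 to 1074). In eak-7;akt-1, F13C5.5 had 16 fragments and F35F10.7 had 26, both higher than in wild type by the test (log2 1.85 and 2.34), and the triple mutant differed from eak-7;akt-1 by log2 0.55 ± 0.35 and -0.13 ± 0.44 (SE), neither past the test. These intervals are exact and cover counting error only. F22H10.3 was the most abundant called X-linked locus, with 224 ± 31.8 scaled counts in the triple mutant and 147 ± 17.6 in wild type (SD, n = 5 each), and an eak-7;akt-1 mean of 177; its fold of 1.51 stood just past the threshold and its call was lost in 7 of 21 alternatives. The 3 X-linked loci that fell were H36L18.2, F48D6.4 and a locus without a gene name.

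**Figure D3:**
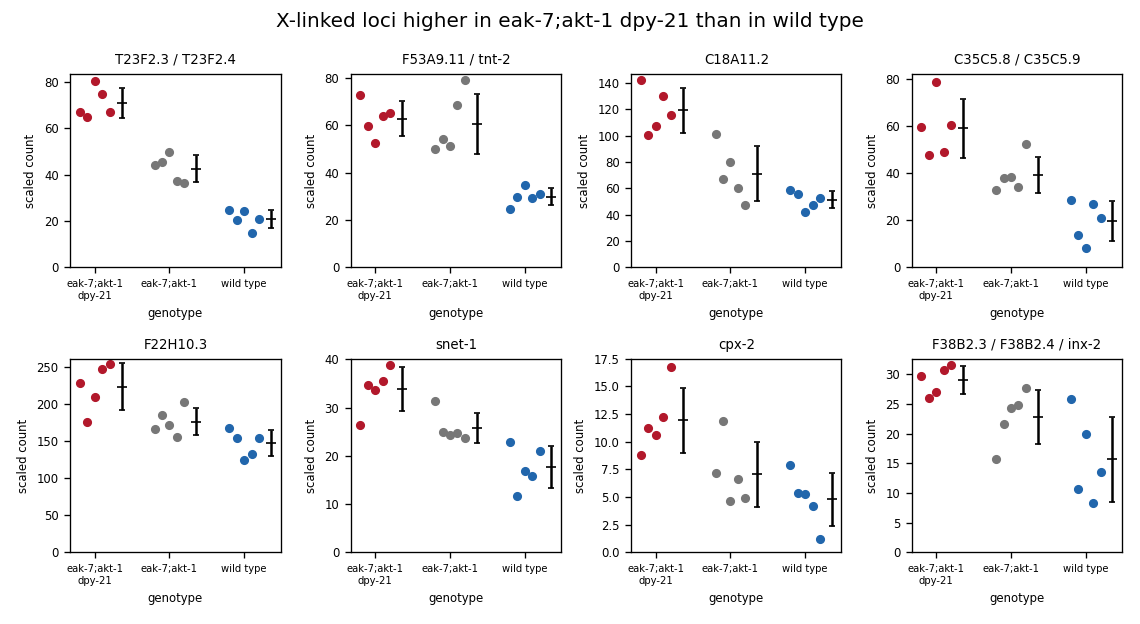
Scaled counts of 8 X-linked loci (vertical axis, 0 included) in each library of the triple mutant, the double mutant and wild type, with mean and SD (n = 5). The eak-7;akt-1 points of the tnt-2 locus lie with those of the triple mutant, and the eak-7;akt-1 mean of C18A11.2, 71.2, lies closer to the wild-type mean of 51.3 than to the triple-mutant mean of 119.1.

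Off the X chromosome, unplaced loci included, 21 loci were higher and 47 lower as deposited, a split that was 31 and 35 with TMM scaling, 30 and 35 with median-of-ratios scaling and 26 and 27 in edgeR. Between eak-7;akt-1 and the same wild-type libraries, 143 of 1101 loci (13.0%) passed, so the values are set side by side without counting agreement. far-2 (III:9081828-9082511), a fatty acid and retinol binding protein gene, had 13.2, 17.3, 11.5, 24.5 and 16.1 scaled counts in the triple mutant, against 80.3, 85.2, 73.6, 105 and 91.1 in wild type. It was 5.15-fold lower (log2 -2.36 ± 0.21, SE; limma adjusted p = 3.53e-09), and the eak-7;akt-1 mean was 18.6. Of the 18 tested loci of the lipid binding list, far-2 was the one that passed, with a list median of -0.23 against -0.09 over all tested loci.

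Several antimicrobial and defence effectors fell. Of 28 tested loci of the innate defence list, 5 were lower (fipr-10, fipr-11, fipr-7, fip-1 and cnc-2), or 17.9% against 4.54% of all tested loci, and none higher, with a median of -0.03 as deposited and 0.10 with TMM scaling, where 5 were lower and 1 higher. fipr-10 and fipr-11, of the fungus-induced protein family, lie near each other on V (fipr-10 at V:9914163-9914529, fipr-11 at V:9905853-9906215). fipr-10 had 7.70, 9.52, 7.37, 8.58 and 11.4 scaled counts in the triple mutant, against 98.2, 106, 70.5, 116 and 92.3 in wild type (log2 -3.30 ± 0.44, SE; limma adjusted p = 6.29e-06). fipr-11 averaged 2.07 ± 1.33 in eak-7;akt-1 dpy-21 and 25.2 ± 9.88 in wild type. Their eak-7;akt-1 means, 2.85 and 0.429, were below those of the triple mutant, and fipr-10 was higher in the triple mutant than in eak-7;akt-1 (log2 1.68, limma adjusted p = 0.0079). As these family members are alike in sequence, fragments may be divided between them.

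fip-1 and dct-16 stood in another order, with eak-7;akt-1 highest. The fip-1 locus averaged 16.1 ± 5.897 in eak-7;akt-1 dpy-21, 138 ± 42.6 in the double mutant and 46.5 ± 27.4 in wild type, and its call against wild type was lost in 4 of 21 alternatives. dct-16, named for its control by DAF-16, had 69.3, 103, 84.4, 55.1 and 122 scaled counts in the triple mutant, against 227, 236, 204, 197 and 129 in wild type. It was 2.32-fold lower than in wild type (log2 -1.21 ± 0.20, SE; limma adjusted p = 1.43e-04) and its eak-7;akt-1 mean was 334. cnc-2, a caenacin antimicrobial peptide gene, averaged 13.8 ± 10.8 in eak-7;akt-1 dpy-21, 47.5 in the double mutant and 34.4 ± 21.9 in wild type; it lost its call in 9 of 21 alternatives. nlp-34, an antimicrobial-type peptide gene of the neuropeptide-like family, had 220, 134, 189, 154 and 178 scaled counts in the mutant, against 860, 346, 481, 255 and 410 in wild type, with an eak-7;akt-1 mean of 274 (log2 -1.32 ± 0.26, SE; limma adjusted p = 9.52e-04).

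Several cuticle collagen loci were lower. Of 14 tested loci of the collagen list, 5 fell (col-73, col-17, dpy-5 and the loci that hold dpy-14 and dpy-4) and none rose, 35.7% lower against 4.54% of all tested loci, and the list median was -0.64 against -0.09; edgeR called 2 and DESeq2 4 of the 14. dpy-5 (I:5432197-5433051), a collagen whose loss shortens the body, had 30.8, 7.79, 11.5, 19.6 and 20.1 scaled counts in the triple mutant, against 54.5, 58.6, 47.3, 50.1 and 40.6 in wild type. It was 2.95-fold lower than in wild type (log2 -1.56 ± 0.44, SE; limma adjusted p = 0.0202), and at an eak-7;akt-1 mean of 1.27 it was higher in the triple mutant than in the double mutant (log2 3.04, limma adjusted p = 8.4e-06); its call against wild type was lost in 4 of 21 alternatives. col-73 and col-17 averaged 1.30 and 2.83 in eak-7;akt-1 dpy-21, 0 in the double mutant, and 7.06 and 9.27 in wild type. They had 7 and 14 fragments over the 5 triple-mutant libraries, and at both loci the values of the triple mutant overlapped those of wild type. Their calls were lost in 1 and 2 of 20 alternatives. The dpy-14 locus also holds K02F2.11, ahcy-1 and dpf-3, so its fall cannot be assigned to the collagen gene. It averaged 19.3 in eak-7;akt-1 dpy-21, 28.6 in the double mutant and 33.3 in wild type, and lost its call in 3 of 21 alternatives. Of the 4 hypodermal markers given above, 3 are themselves cuticle collagen genes. Cuticle genes cycle with the moult in larvae, and stage within L2/L2D was not labelled.

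srw-85, a chemoreceptor gene, had 0 fragments in all 5 eak-7;akt-1 dpy-21 libraries and 68 fragments over wild type. That is at least 25.8-fold lower against a floor of 3 fragments over the group. In wild type, replicate 7 was itself at 0. The double mutant also had 0 fragments. Mean scaled counts were 51.0 with set-4(dp268), 0.42 with set-4(n4600), 0.35 with the daf-16 mutation and 0 with the daf-12 mutation, against 13.7 in wild type. The Y48G8AL.12/Y48G8AL.16 locus was lower than wild type in both mutants and higher in the triple than in the double mutant (log2 2.91, limma adjusted p = 1.6e-05): it averaged 23.8 ± 10.6 in eak-7;akt-1 dpy-21, 2.52 in the double mutant and 131 ± 10.7 in wild type. At F15E6.4 the mean was 1.90 ± 2.21 in eak-7;akt-1 dpy-21, 7.55 in the double mutant and 12.1 ± 4.80 in wild type, and the triple mutant was below eak-7;akt-1 (log2 -1.80, limma adjusted p = 0.0012).

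**Figure D4:**
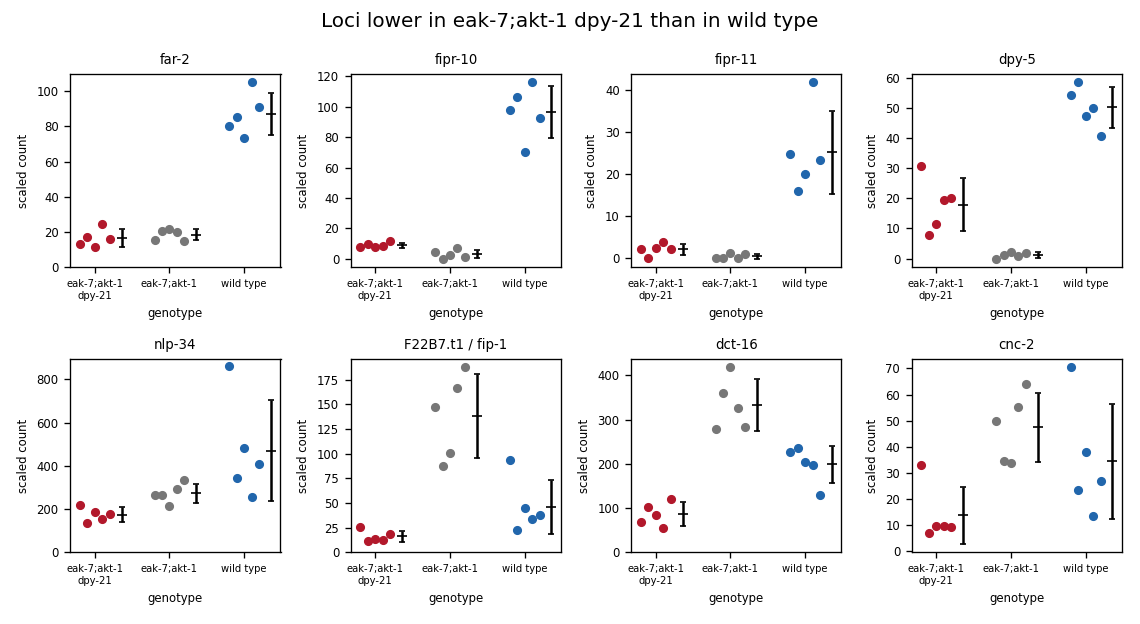
Scaled counts of 8 loci (vertical axis, 0 included) in each library of the triple mutant, the double mutant and wild type, with mean and SD (n = 5). far-2 and fipr-10 are low in both mutants, while fip-1 and dct-16 are highest in eak-7;akt-1.

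Single loci were compared directly with the daf-16 and daf-12 mutant combinations, and no such test was made against the set-4 mutants. Against the daf-16 mutant combination 68 loci (6.18%) passed, and against the daf-12 combination 62 loci (5.63%) passed. dct-16 was lower in the triple mutant than in either, by log2 -1.38 and -1.62, and far-2 was lower than with the daf-16 mutation (log2 -1.58, limma adjusted p = 1.6e-05) but not past the test against the daf-12 mutation (log2 -0.51 ± 0.21, SE). T23F2.3/T23F2.4 was higher than in either, by log2 1.54 and 1.34. The X-linked medians of these direct contrasts were 0.42 against the daf-16 and 0.28 against the daf-12 combination, and the autosomal medians were -0.24 and -0.23.

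Insulin-like peptide genes were variable. Of 5 tested loci, 0 passed in limma over all libraries, with 1 at an unadjusted p under 0.05. In edgeR 1 passed and in DESeq2 2 passed. daf-28, an insulin-like ligand that favours reproductive growth, had 50.6, 55.4, 41.0, 0 and 58.9 scaled counts in replicates 6 to 10 of the triple mutant, against 4.96, 0, 8.41, 12.5 and 12.3 in wild type. The mutant library at 0 was replicate 9, of the smaller set. ins-35 had 1.10, 77.9, 100.8, 1.23 and 110 in the mutant and 38.7, 0, 78.9, 26.7 and 2.46 in wild type. It was low in the libraries of the smaller set in both genotypes. Over all libraries, neither ins-35 nor daf-28 passed (limma adjusted p = 0.926 and 0.381). Without that set, both daf-28 (log2 2.52, limma adjusted p = 9.09e-06) and ins-35 (log2 1.11, limma adjusted p = 0.0084) passed. The set was defined from these same data, and ins-7, ins-12 and the locus of ins-25, ins-27 and ins-29 did not pass without it. The locus of ins-25, ins-27 and ins-29 had a log2 fold change of 0.57, under the fold threshold as deposited and past it with TMM scaling (log2 0.71). ins-9 shares its X-linked locus with ubc-22 and lay under the filter. That locus had 1 fragment over the 5 triple-mutant libraries, 0 over the 5 eak-7;akt-1 libraries and 9 over the 5 wild-type libraries. Between the triple mutant and wild type the exact two-sided permutation p was 0.0476, or 0.381 adjusted over 8 genes tested this way, the smallest p possible being 0.00794.

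Of 46 large-subunit ribosomal loci 2 fell (rpl-37 and the locus that holds rpl-23), or 4.35%, close to the 4.54% of all tested loci, and the rpl-23 locus lost its call in 8 of 21 alternatives, TMM scaling among them; 0 of 27 small-subunit loci passed, with medians of -0.23 in both lists as deposited and -0.08 with TMM scaling. Likewise 0 of 20 nuclear respiratory chain and ATP synthase loci (median -0.21) and 0 of 25 proteasome and ubiquitin loci (median -0.29) passed. Unadjusted p-values under 0.05 were found for 9 small-subunit, 5 respiratory and 3 proteasome loci, and edgeR and DESeq2 called 0 in each of these 3 lists. In limma 0 loci also passed among 12 redox and glutathione loci, 9 heat shock and metallothionein loci, 6 hedgehog-related and other cuticle loci, 4 transthyretin-like loci, 3 histone loci, 3 mitochondrial genome loci, 3 DAF-16 target loci, 2 dauer pathway loci and 1 dosage compensation locus, with 5 at an unadjusted p under 0.05 in all; edgeR called 1 of these loci, a DAF-16 target, and DESeq2 called 2. Of 14 neuropeptide loci 1 rose (snet-1) and 1 fell (nlp-34). No sperm, oocyte, embryo or germline locus was tested.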

How the data were processed

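Larvae of 7 genotypes were profiled by poly(A) RNA-seq, 5 libraries each. Per the labels, the authors trimmed reads (cutadapt, FastQC), aligned them with TopHat2 2.0.9 and Bowtie2 2.1.0 to WBcel235, and assembled and counted loci with Cufflinks and Cuffdiff 2.1.1. The deposited signal values are Cuffdiff scaled counts, fragments scaled by a per-library size factor. The strand setting was not given in the sources used here. Every value was a whole multiple of a step per library (100.0% within a tolerance of 0.1), which recovered fragments; edgeR on those fragments called 74 loci. Loci that reached 5 scaled counts in 5 or more libraries were kept. Log2(scaled count + 1) was fitted with limma 3.58.1 (trend) over all 35 libraries in R 4.3.3, with Benjamini-Hochberg adjustment over 1101 loci. Fold changes are on that scale, which understates changes of low loci. Loci passing had an adjusted p under 0.05 and a fold of at least 1.5. The fit was tested on simulated data, in which falls of low loci were found less often, and estimated smaller, than rises; the simulation was redrawn with dispersions of the real libraries after a first version failed its own recovery requirement. Gene positions came from the WBcel235 annotation, and 99 tested loci could not be placed. Alternatives used edgeR 4.0.16, DESeq2 1.42.0, other scalings, filters and pseudocounts, a replicate block, and leaving out libraries. The named loci followed a rule: the 8 largest rises and falls in every same-numbered pair, up to 4 per gene list, up to 6 X-linked, up to 6 also changed and up to 6 not changed in eak-7;akt-1, and the study's genes. Members, lists and this rule were chosen with earlier results of these data known; inx-2, glt-1, cpx-2, dct-16, fipr-7, rpl-37 and F48D6.4 were named after their values were seen. Intervals and floors cover counting error only.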

Additional observations from a re-analysis of the deposited data

Results flagged for a closer look

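Of 54 groups of 5 libraries examined at named loci, 5 held a library whose gap to its nearest neighbour, divided by the range, exceeded 0.71. For normally distributed values chance gives about 1 in 20. That rate does not apply to groups of very few fragments, as at F35F10.7, F13C5.5 and the lsm-1 locus below. Replicate 6 of eak-7;akt-1 dpy-21 had 33.0 scaled counts at cnc-2, against 9.83 in the next library of that genotype. Replicate 9 had 2.45 at the locus that holds lsm-1, and replicate 8 had 4.10 at T23E7.2, the lowest of its genotype. In wild type, replicate 7 had 1.065 at both F35F10.7 and F13C5.5, 1 fragment each, with the other libraries at 0.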

How the results depend on the processing

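Of 33 named loci that passed, 17 passed under all alternatives that could be run for them. The X-minus-autosome difference was 0.61 to 0.72 when libraries were left out one at a time; called loci were then 63 to 88, higher loci 24 to 38, lower loci 33 to 55 and X-linked called loci 15 to 20. With no filter on low values (8710 loci) 39 loci passed, 17 higher, 22 lower and 9 X-linked, and the X-minus-autosome difference was 0, since most added loci have a fold change of 0. With the 10 libraries fitted alone 50 passed, 21 higher, 29 lower and 12 X-linked. In the larger set of libraries 23 were higher and 13 X-linked loci passed. edgeR on fragments found 28 lower. The cause of the last 3 differences was not tested. With the unnamed runs placed on the chromosome they follow, an alternative chosen after seeing the data like the restriction to single gene names (0.62), 29 X-linked loci passed and the difference was 0.71. For replicate numbers shared by the genotypes, same-numbered deviations correlated at -0.27, -0.46, 0.51, -0.57 and -0.50, and no library correlated best with its own number. The smaller set holds different replicate numbers in the triple mutant and in wild type, which enters these correlations. They therefore cannot decide whether a shared number marks a pairing. With a replicate block 93 loci passed, 87 of them among the 88. With 34193 to 88068 fragments a library, loci with few fragments could show large changes only.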
